A study of Homo sapiens with 12 samples.

Results

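The 80 genes described here encode the proteins of the cytosolic ribosome. They are the rows of the deposited table whose symbol is RPL, RPLP or RPS followed by a number and, in some genes, A, X or L, and they make up 80 of 27514 listed genes. The symbols gave 49 genes of the large (60S) subunit, among them the 3 stalk genes RPLP0, RPLP1 and RPLP2, and 31 genes of the small (40S) subunit. Pseudogenes and the S6 kinases do not match this pattern, and neither do a few ribosomal proteins with other names, which are given separately further on. The members lie on 21 chromosomes, 12 of them on chromosome 19. A total of 78 members passed the filter of a mean of at least 1 CPM (counts of a gene scaled to the library's total reads, as deposited) over the 12 samples. RPL10L and RPL3L did not pass.

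RNA was sequenced from IMR32, an established human neuroblastoma cell line with amplified MYCN, the gene of a MYC family transcription factor. The cells received a control siRNA (siCtrl, labelled siCTR), an siRNA against MYCN (labelled siMYCN_2), an siRNA against HAND2 (labelled siHAND2_3), or the siRNAs against both genes, termed the combined knockdown here, by Nucleofector electroporation, and were kept in growth medium for 72 h. HAND2 encodes a basic helix-loop-helix transcription factor of the sympathetic lineage. Each of the 4 groups has 3 samples. All come from 1 cell line and, as far as the labels show, from 1 siRNA per target, and the labels do not say whether the samples of a group were separate cultures, so p-values measure the spread between these samples only.

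Most ribosomal proteins are needed in equal numbers per ribosome, with more copies of the stalk proteins RPLP1 and RPLP2, and cells make their mRNAs in very large amounts. Most of these mRNAs begin at a cytidine followed by a run of pyrimidines, the 5′ terminal oligopyrimidine (TOP) motif, through which the mTOR pathway and LARP1 adjust their translation together. MYC family proteins are known activators of ribosome production, including genes for ribosomal proteins, ribosomal RNA and assembly factors.

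The start sites of the members are shown because this shared motif is the feature the group is known for. RefSeq start sites of the GRCh38.p14 build were given for 63 of the 80 members. A C followed by at least 4 further pyrimidines stood exactly at a listed start in 45 of these 63 members (71.4%), against 5.14% of the 27305 genes with a listed start. The run was 5 to 19 bases long, with a median of 8. In the lines that follow, each with 8 bases before the start and 20 from it, capitals mark the pyrimidine run that begins at the start. The first 4 are members with the largest falls in siMYCN. RPS27 and RPL39 were not called in the combined knockdown on deposited CPM and were called higher there on the rescaled values introduced further on. RPS27L is a paralog without such a run at its listed start.
RPS18 (chr6:33272067-33272094, plus strand): cttccgctCTCTCTTCCacaggaggcct
RPL12 (chr9:127451387-127451414, minus strand): atttccggCCTCTCggctttcggctcgg
RPS6 (chr9:19380217-19380244, minus strand): agttggccCTCTTTTCCgtggcgcctcg
RPL26 (chr17:8383174-8383201, minus strand): gtgtagttCTCTTCCCTTTTgcggccat
RPS27 (chr1:153990754-153990781, plus strand): ctttcgctCCTTTCCggcggtgacgacc
RPL39 (chrX:119791611-119791638, minus strand): gccagcttCCCTCCTCTTCCTTTCTCCg
RPS27L (chr15:63157458-63157485, minus strand): tgccgagcgcagatcgcttgcagcttgc

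Both targeted genes were lower in the libraries that carry their name. MYCN was 1009 ± 42.6 CPM in siCtrl (SD, n = 3), 682 ± 22.8 CPM with siMYCN, 849 ± 48.7 CPM with siHAND2 and 482 ± 64.3 CPM with both siRNAs, or 67.5% of siCtrl with its own siRNA alone and 47.7% with both. HAND2 was 239 ± 15.3 CPM in siCtrl, 326 ± 7.50 CPM in siMYCN, 62.3 ± 7.06 CPM after siHAND2 and 73.5 ± 11.1 CPM with both siRNAs. Of 9 adrenergic neuroblastoma markers, 8 passed the filter (TH did not), and of 14 markers of stromal, Schwann, blood and epithelial cells 2 did. Values are given for COL1A1 only, with means of 7.90, 6.13, 1.41 and 0.781 CPM in siCtrl, siMYCN, siHAND2 and the combined knockdown, and do not stand for both. Of the 8 adrenergic markers 7 were called higher in siMYCN, where 17.4% of all tested genes were, and the part of this shift in the members' changes was not tested. Depth, estimated by taking the most frequent low value as the worth of 1 read, was 31.6 to 64.2 M reads. The reads in listed genes made up 65.1% of all reads in siCtrl, 62.4% in siMYCN, 59.4% after siHAND2 and 51.4% with both siRNAs, where replicates 1 to 3 had 58.4%, 51.4% and 44.3%. Deposited CPM therefore set every gene against a total that is not the same mixture in each group, and against siCtrl the median log2 fold change of all 12680 tested genes was 0.01 after siMYCN, -0.14 after siHAND2 and -0.28 with both siRNAs. Changes are for this reason also given after dividing each library by the median of its genes' ratios to their geometric means (median-ratio scale) and by its sum over the listed genes (listed-gene scale). Replicate 3 of the combined knockdown stood apart in the members: their median log2 change from the siCtrl mean on the median-ratio scale was -0.11 and -0.14 in replicates 1 and 2 and 0.21 in replicate 3.

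The members together took up a smaller share of all reads after siMYCN and a share within the siCtrl range after siHAND2, whereas their share of the reads in listed genes went above that range in 2 of 3 siHAND2 libraries. Their summed level was 58164, 52229 and 60830 CPM in siCtrl, which is 5.71% ± 0.440 of all reads (SD, n = 3). In siMYCN the sum was 40206, 37906 and 38986 CPM, 3.90% ± 0.115 of all reads and 68.4% of siCtrl. All 3 siMYCN libraries lay below all siCtrl libraries. In siHAND2 the sum was 54078, 57040 and 55919 CPM, 97.6% of siCtrl, inside the siCtrl range. In the combined knockdown it was 47028, 40015 and 43208 CPM, 76.1% of siCtrl, between siMYCN and siCtrl with no overlap with siCtrl; without replicate 3 it was 76.3%. Set against the reads in listed genes only, the members held 8.76% ± 0.610 in siCtrl, 6.26% ± 0.169 in siMYCN, 9.38% ± 0.528 after siHAND2 (8.81%, 9.48% and 9.85%, the last 2 above the highest siCtrl library at 9.33%) and 8.53% ± 1.06 with both siRNAs (8.05%, 7.79% and 9.74% in replicates 1 to 3). On that denominator siMYCN lay below every other library, whereas the combined knockdown stood at 97.3% of the siCtrl mean and overlapped siCtrl through replicate 3 alone. As a share of all reads, replicate 2 of the combined knockdown (40015 CPM) lay below replicate 1 of siMYCN (40206 CPM). With the reads in listed genes as the denominator there was no such overlap. There, replicates 1 and 2 of the combined knockdown lay below the lowest siCtrl library (8.12%), at 90.4% of the siCtrl mean. The summed large-subunit level divided by the summed small-subunit level was 1.58 in siCtrl, 1.61 in siMYCN, 1.62 after siHAND2 and 1.54 with both siRNAs, where replicate 3 had 1.42. These are bulk libraries, so less of this RNA in every cell and fewer cells with a high level cannot be told apart.

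**Figure D1:**
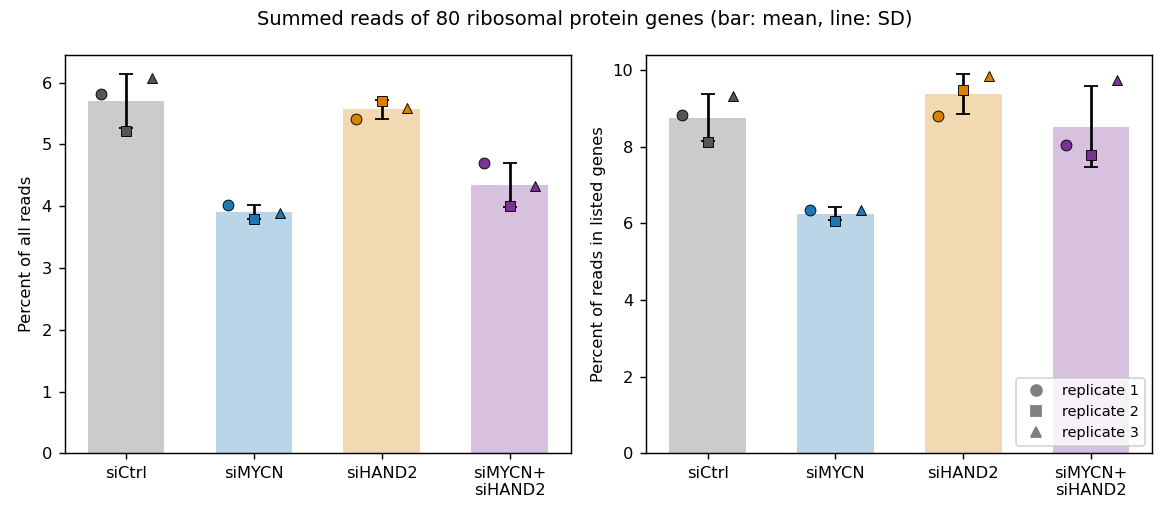
Summed reads of the 80 ribosomal protein genes per library, as percent of all reads (left) and as percent of the reads in listed genes (right), with replicates 1 to 3 as circle, square and triangle, bars for group means and lines for the SD. The siMYCN libraries are the lowest on the right. On the left they hold 3.79% to 4.02%, and replicate 2 of the combined knockdown (4.00%) lies within that range. The combined knockdown lies below siCtrl on the left and overlaps it on the right through replicate 3 alone.

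The comparison of siMYCN with siCtrl addresses how these genes respond to a lower MYCN level, and nearly all members were lower. By limma with Benjamini-Hochberg adjustment over all tested genes (adjusted p under 0.05, termed called), 71 of 78 members fell and none rose, against 16.3% of all tested genes called lower. The median log2 fold change, here and in what follows on the log2(CPM + 1) scale, was -0.51 over the members and 0.01 over all genes. All 3 siMYCN libraries lay below all 3 siCtrl libraries in 74 of the 78 members, as in 29.6% of all tested genes. The counts were 72 lower on the median-ratio scale (22.5% of all genes) and 69 lower on the listed-gene scale (18.4% of all genes), and 68 members were called lower on all 3 scales. Leaving out the paralogs RPL3L, RPL10L, RPL39L and RPS27L, 44 of 46 large-subunit genes and 26 of 30 small-subunit genes fell, with medians of -0.51 in both.

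The largest fall was that of RPS18, a protein of the 40S head. RPS18 was 1301, 1080.0 and 1307 CPM in siCtrl and 679, 588 and 633 CPM in siMYCN, 1229 ± 129 CPM against 633 ± 45.2 CPM, a log2 fold change of -0.95, SE 0.12, adjusted p = 1.37e-06. RPL12, which sits at the base of the 60S stalk, went from 719, 669 and 796 CPM to 395, 380.5 and 399.7 CPM (-0.89, SE 0.11, adjusted p = 1.18e-06). RPS6, the 40S protein phosphorylated by the S6 kinases, had 1279.5, 1019 and 1282 CPM in siCtrl and 703, 606 and 654 CPM in siMYCN (-0.86, SE 0.13, adjusted p = 8.37e-06). In each of these 3 genes the siMYCN libraries lay far below the lowest siCtrl library. RPL26 fell from 723 ± 72.3 CPM to 398 ± 12.3 CPM, 55.0% of siCtrl, and RPL35, a 60S protein near the exit of the peptide tunnel, from 435 ± 42.1 CPM to 253 ± 17.0 CPM, 58.1% of siCtrl.

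Members known for particular roles fell with the rest. RPL5 and RPL11, which bind 5S ribosomal RNA, had log2 fold changes of -0.69, SE 0.12, adjusted p = 5.16e-05 and -0.56, SE 0.11, adjusted p = 0.000465. RPL5 was 1208, 1053 and 1272 CPM in siCtrl and 745, 706 and 734 CPM in siMYCN, without overlap. RPS14 and RPS19, 40S proteins whose loss is known from 5q- syndrome and Diamond-Blackfan anaemia, stood at 60.5% and 74.8% of siCtrl (-0.72, SE 0.12, adjusted p = 3.41e-05 and -0.41, SE 0.12, adjusted p = 0.00718). RPL38, known for its part in the translation of Hox mRNAs, stood at 68.7% (-0.54, SE 0.11, adjusted p = 0.000545). RPS27A, whose protein is made as a fusion with ubiquitin, stood at 69.6% (-0.52, SE 0.12, adjusted p = 0.00156). The stalk genes RPLP0, RPLP1 and RPLP2, whose proteins recruit the elongation factors, had log2 fold changes of -0.45, -0.35 and -0.30, each called.

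The 7 members that were not called in siMYCN were RPS16, RPS20, RPS26, RPS27, RPL10, RPL28 and RPL39L. RPL10, a 60S protein that joins late in assembly, was 834, 733 and 802 CPM in siCtrl and 738, 677 and 674 CPM in siMYCN (-0.18, SE 0.13, adjusted p = 0.29). RPS27, a zinc-binding 40S protein, was 842, 775 and 932 CPM in siCtrl and 747, 718 and 781 CPM in siMYCN (-0.18, SE 0.12, adjusted p = 0.25). In both genes the highest siMYCN library lay above the lowest siCtrl library. RPL28 was 164 ± 5.77 CPM and 148 ± 2.31 CPM (-0.15, SE 0.12, adjusted p = 0.366). RPL10 and RPL28 were called lower on the median-ratio scale (adjusted p = 0.0439 and 0.0359) and not on the listed-gene scale (0.152 and 0.204). RPS26 was called lower on both rescalings (adjusted p = 0.0454 on the listed-gene scale). RPL39, RPS13 and RPS29 were called on deposited CPM and not on the listed-gene scale (adjusted p = 0.082, 0.0757 and 0.0846). RPL10 overlaps SNORA70 on the same strand and DNASE1L1 on the other, RPL12 and RPL39 also hold a snoRNA gene, and RPL35 overlaps WDR38 on the other strand.

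**Figure D2:**
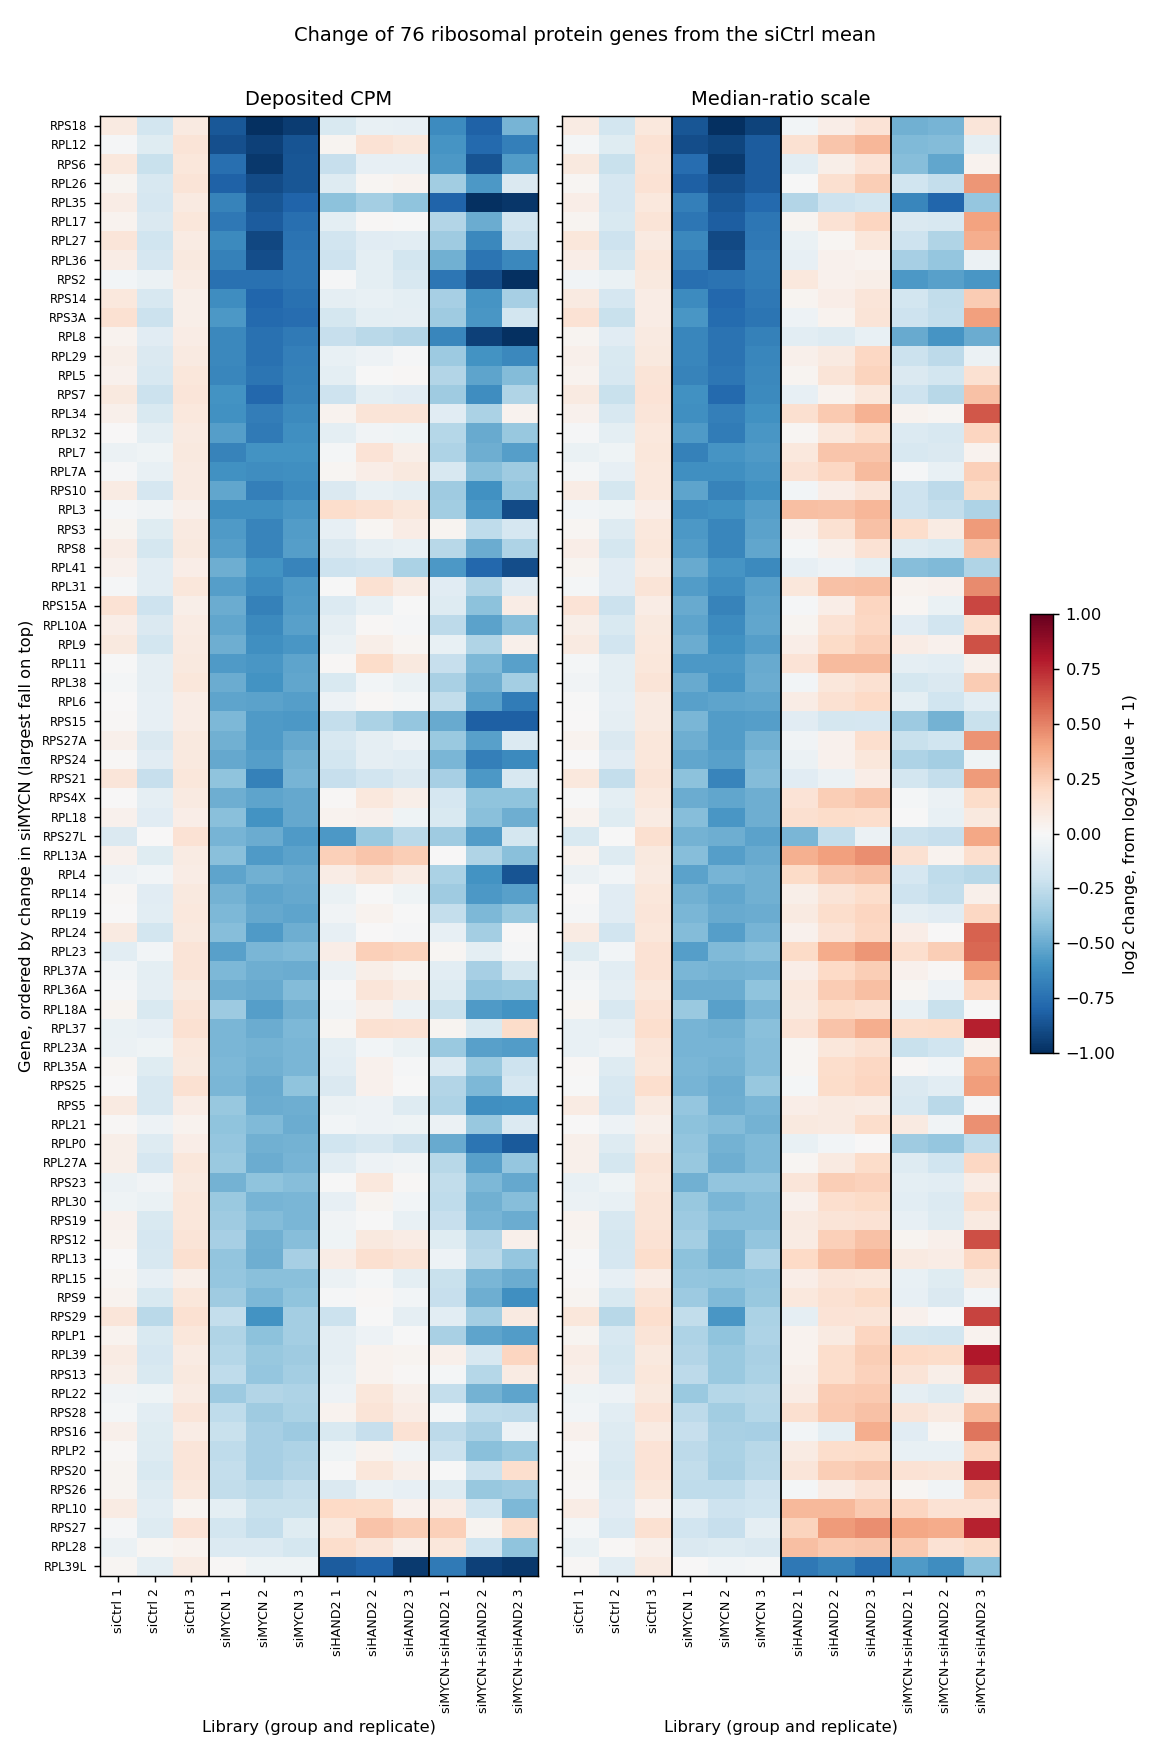
Log2 change of 76 of the 78 tested members from the siCtrl mean in each of the 12 libraries, on deposited CPM (left) and on the median-ratio scale (right); rows are genes ordered by the change in siMYCN, columns are libraries, blue is lower and red is higher, and the colour range ends at 1 on either side. The 3 siMYCN columns are blue in nearly all rows of both panels, the combined knockdown is mostly blue on the left and mixed on the right, and RPL39L, at the end of the order, is blue after siHAND2 and with both siRNAs but not in siMYCN.

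After siHAND2 few members were called on deposited CPM. There 4 of 78 were called lower and none higher, against 30.4% of all tested genes called lower, with a median log2 fold change of -0.03 over the members and -0.14 over all genes. The 4 were RPL39L, RPS27L, RPL35 and RPS15. RPL35 was 326, 342 and 328 CPM in siHAND2 against 457, 387 and 463 CPM in siCtrl (-0.39, SE 0.12, adjusted p = 0.0103), and RPS15, a 40S head protein, 307, 291 and 277 CPM against 365, 342 and 381 CPM (-0.31, SE 0.12, adjusted p = 0.0308). In both genes every siHAND2 library lay below every siCtrl library. The 2 rescalings turned the median to 0.13 and 0.10, and 17 (median-ratio scale) or 14 (listed-gene scale) members were then called higher, against 25.9% and 23.3% of all genes, and 1 or 3 lower, against 24.9% and 27.2%. Of these, 14 members were called higher on both and RPL39L was the only member called lower on all 3 scales. Out of 78 members, the counts called higher on the rescalings lay below the shares of all genes. The count of 4 fell to 2 without siCtrl replicate 1 and to 1 without siCtrl replicate 3, where the shares of all genes are not given here. Among the 14, RPL3, a protein of the peptidyl transferase centre, was 1166, 1148 and 1223 CPM in siCtrl and 1332, 1312 and 1274 CPM in siHAND2, with no overlap, and its log2 fold change was 0.15 on deposited CPM (adjusted p = 0.353) and 0.31 on the median-ratio scale (adjusted p = 0.000805). RPL13A, named after its values were seen, had 0.25 (adjusted p = 0.0872) and 0.41 (adjusted p = 0.000114).

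With both siRNAs the number of members called against siCtrl, and in part their direction, depended on the scale. The fold change was below 0 in 75 of 78 members on deposited CPM, in 42 on the median-ratio scale and in 47 on the listed-gene scale. On deposited CPM 54 of 78 members were called lower and none higher, against 50.1% of all genes called lower, and the median was -0.38 over the members and -0.28 over all genes. On the median-ratio scale 13 were called lower and 10 higher around a median of -0.02, where 33% of all genes were called lower and 37.7% higher. On the listed-gene scale 14 were called lower and 11 higher around -0.03, where the shares of all genes were 33.3% and 37%. On both rescalings the members were thus called less often than all genes in either direction. Without replicate 3 of the combined knockdown the counts on the 3 scales were 59 lower, then 25 lower and 4 higher, then 25 lower and 6 higher. The shares of all genes without this replicate are not given here, so these counts are not read as a result about the members. The 13 members called lower on all 3 scales were RPL3, RPL4, RPL8, RPL12, RPL35, RPL36, RPL39L, RPL41, RPLP0, RPS2, RPS6, RPS15 and RPS24. Both rescalings called 10 members higher, among them RPL10, RPL23, RPL28, RPL37, RPL39, RPS3, RPS20, RPS27 and RPS28, none of them called on deposited CPM.

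RPL35 had the largest fall in the combined knockdown, to 249, 197 and 220.2 CPM, 51.0% of siCtrl (log2 fold change -0.97, SE 0.12, adjusted p = 8.17e-08, and -0.61 on the median-ratio scale). RPS2, a 40S protein of the mRNA entry site, was 1578, 1543 and 1705 CPM in siCtrl, 958, 957 and 972 CPM in siMYCN and 973, 870.1 and 711 CPM in the combined knockdown (-0.93, SE 0.12, adjusted p = 2.51e-07 against siCtrl, and -0.57 on the median-ratio scale). The combined libraries of RPS2 lay from the siMYCN level downwards, with replicate 3 lowest. RPL8, RPL41, the shortest of the ribosomal proteins, and RPLP0 stood at 54.3%, 59.6% and 62.1% of siCtrl. At the other end, RPS27 was 1000.4, 863 and 959 CPM (0.15, SE 0.12, adjusted p = 0.262, and 0.51, adjusted p = 0.000713, on the median-ratio scale, the largest rise of a member there). RPL39, a very short 60S protein of the peptide tunnel, was 645, 542 and 646 CPM in siCtrl, 500.0, 469 and 476 CPM in siMYCN and 632, 545 and 707 CPM in the combined knockdown (0.04, SE 0.12, adjusted p = 0.801 against siCtrl). RPL39 lay in the siCtrl range or above it in the combined knockdown, and in siMYCN below all libraries of the other groups.

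**Figure D3:**
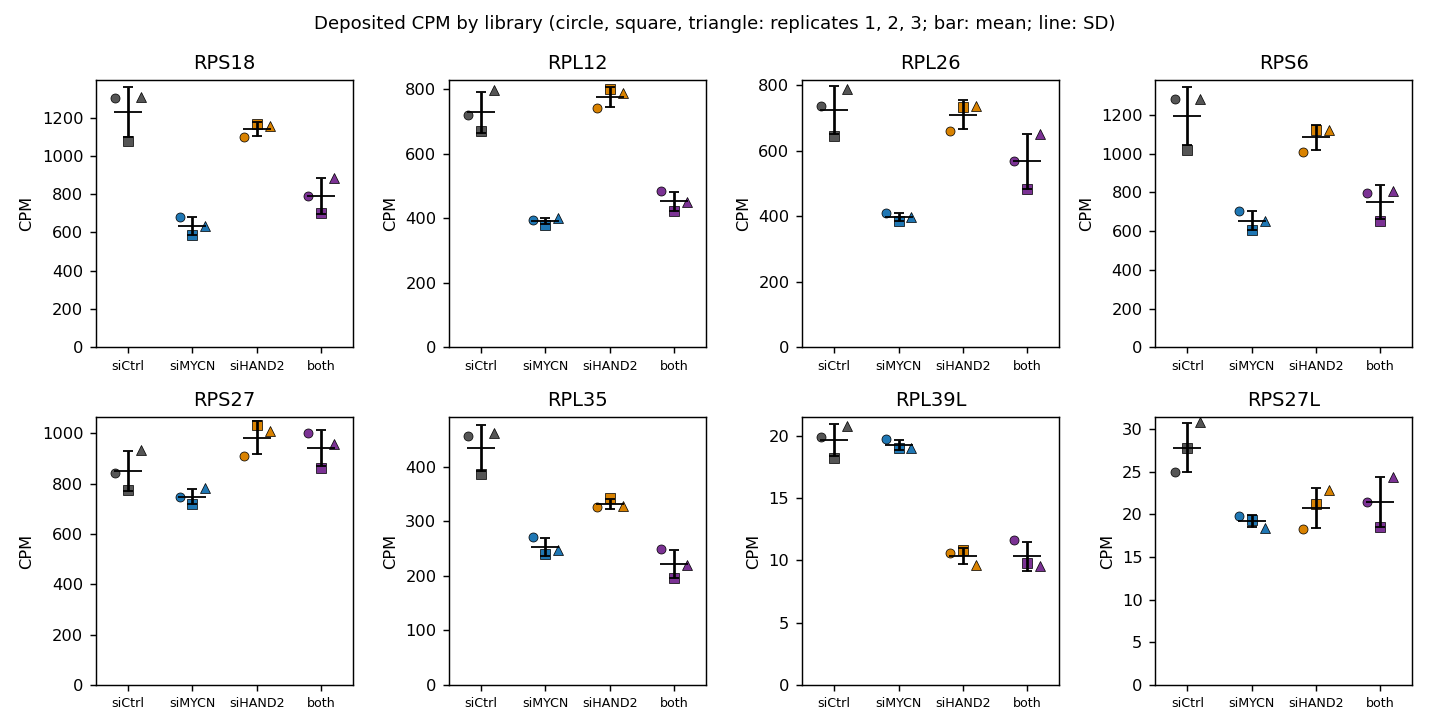
Deposited CPM of 8 members in each library (replicates 1 to 3 as circle, square and triangle; horizontal bar, mean; vertical line, SD; all axes start at 0), where "both" is the combined knockdown. RPS18, RPL12, RPL26 and RPS6 are lowest in siMYCN, RPS27 overlaps siCtrl in siMYCN, RPL35 is lowest in the combined knockdown, and RPL39L is lower in siHAND2 and the combined knockdown than in the other groups.

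Set against siMYCN alone, more members were called higher than lower in the combined knockdown, a minority of them on deposited CPM and most on the rescalings. On deposited CPM 21 of 78 were called higher and 1, RPL39L, lower, against 8.92% of all genes called higher and 50% called lower. The median was 0.16 over the members and -0.28 over all genes, and the fold change was below 0 in 19 members. All 21 were also called higher on both rescalings, where 75 and 70 members were called higher, against 30% and 25% of all genes, and the medians were 0.51 and 0.45. RPL26 was 411, 386 and 397 CPM in siMYCN and 567, 483 and 650.3 CPM in the combined knockdown, with no overlap (0.50, SE 0.12, adjusted p = 0.00132). RPL34, named after its values were seen, had the largest rise (0.51, SE 0.12, adjusted p = 0.000649), and RPS18 and RPS14 rose too (0.32, SE 0.12, adjusted p = 0.0272 and 0.30, SE 0.12, adjusted p = 0.0293). MYCN itself was at 554.5, 457.9 and 432.7 CPM in the combined knockdown and at 671.1, 666.1 and 707.8 CPM in siMYCN, without overlap on deposited CPM (log2 fold change -0.51, adjusted p = 0.000701; -0.16, adjusted p = 0.0535 on the median-ratio scale; -0.22, adjusted p = 0.0113 on the listed-gene scale). The 21 deposited calls became 10 higher without siMYCN replicate 2 and 13 higher without siMYCN replicate 3, and with only the 2 compared groups in the fit they were 9. Without replicate 1 of the combined knockdown 20 members were called higher and 7 lower. Without replicate 3 of the combined knockdown 69 members were called higher on the median-ratio scale. The shares of all genes with a replicate left out or with the 2 groups alone are not given here. These counts are therefore not read as a result about the members.

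The direct comparison of the single knockdowns gave 69 members lower in siMYCN than in siHAND2 and 1, RPL39L, higher, against 8.98% of all genes called lower and 26.1% called higher. The median was -0.47 over the members and 0.13 over all genes, and the same 69 members were called lower on both rescalings. There the counts were 76 and 74, against 22.2% and 15.7% of all genes. RPL12 had the largest difference (-0.98, SE 0.11, adjusted p = 1.56e-07). The combined knockdown was lower than siHAND2 in 47 members, against 31.5% of all genes, and higher in none. The same comparison gave 29 lower without siHAND2 replicate 2 and 28 without replicate 2 of the combined knockdown. For these 2 fits the shares of all genes are not given here. On each rescaling the same 25 members were called lower, all of them among the 47 on deposited CPM, against 23.6% and 22.1% of all genes. RPL39L was called higher on both (0.18, adjusted p = 0.0495 and 0.19, adjusted p = 0.0267), as were 26.1% and 27.4% of all genes. RPS2 (-0.84, SE 0.12, adjusted p = 7.2e-06) and RPL12 (-0.78, SE 0.11, adjusted p = 7.04e-06), with values on deposited CPM, were among the 25 members called lower.

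**Figure D4:**
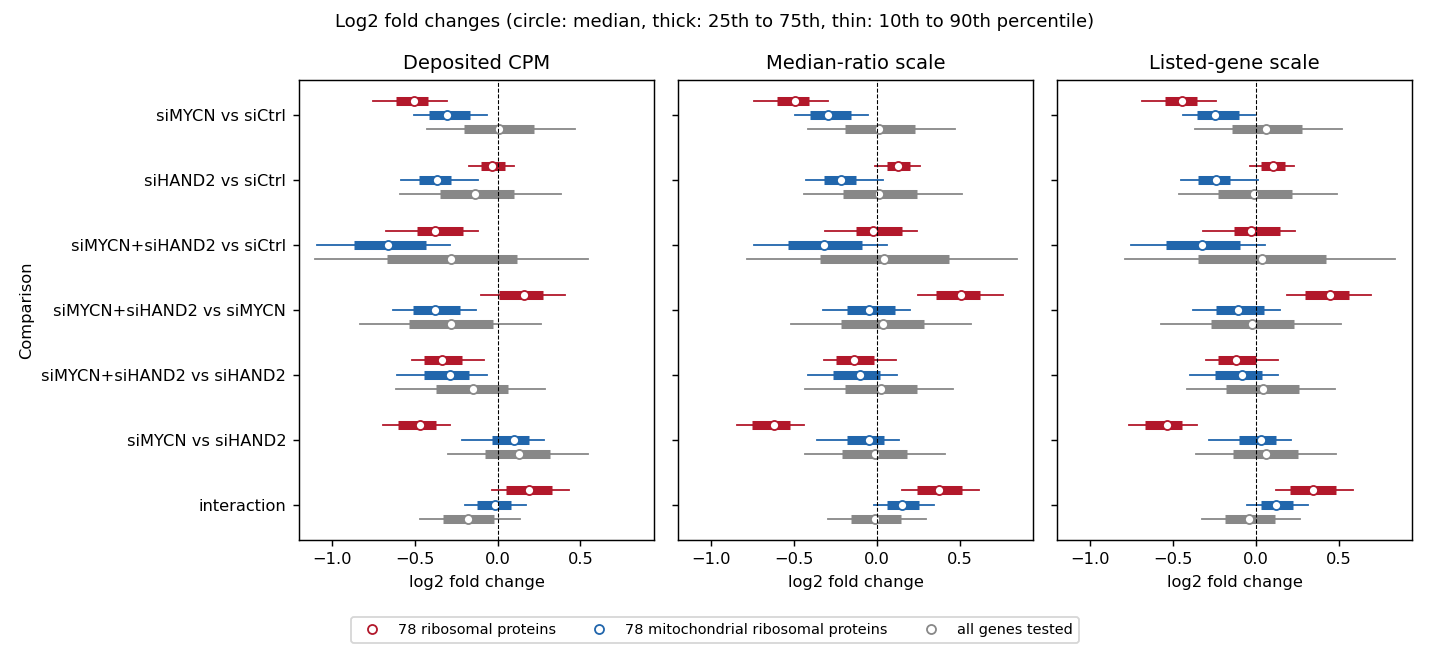
Log2 fold changes in 7 comparisons for the 78 ribosomal protein genes (red), the 78 mitochondrial ribosomal protein genes (blue) and all tested genes (grey) on the 3 scales; circles are medians, thick bars the 25th to 75th and thin bars the 10th to 90th percentiles. The red bars of siMYCN against siCtrl and against siHAND2 lie left of 0 on all scales, and those of the combined knockdown against siCtrl are centred at -0.38 on deposited CPM and at -0.02 and -0.03 on the other 2.

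The interaction asks whether the combined knockdown differs from the sum of the single ones (combined minus siMYCN minus siHAND2 plus siCtrl on the log2 scale). On deposited CPM limma called no member, against 4.01% of all genes, and 17 members had an unadjusted p under 0.05, all of them positive. The coefficient was positive in 67 of 78 members, with a median of 0.19 against -0.18 over all genes. On the rescalings it was called in 9 and 8 members, all positive, against 1.67% and 1.29% of all genes called positive. The most positive members on deposited CPM were RPS27L (0.55, SE 0.17, adjusted p = 0.0651), RPL26 (0.52, SE 0.17, adjusted p = 0.0899) and RPS15A (0.49, SE 0.18, adjusted p = 0.129), and the most negative RPL4 (-0.18, SE 0.18, adjusted p = 0.549), RPL3 (-0.16, SE 0.18, adjusted p = 0.6) and RPL10 (-0.15, SE 0.18, adjusted p = 0.61). The count on deposited CPM was 1 without siHAND2 replicate 3, 8 without replicate 1 of the combined knockdown and 2 without its replicate 2, and with the replicate number as a block it was 5. For these alternative settings and for the unadjusted threshold the shares of all genes are not given here.

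Some ribosomal proteins have a paralog that can take their place, and their values are given beside those of the partners; differences between partners were not tested. RPL39L, a paralog of RPL39 best known from the testis, was 19.9, 18.2 and 20.8 CPM in siCtrl, 19.8, 19.04 and 18.99 CPM in siMYCN, 10.6, 10.8 and 9.62 CPM after siHAND2 and 11.6, 9.77 and 9.56 CPM with both siRNAs. On deposited CPM its siHAND2 and combined libraries overlapped, and all lay below every siCtrl and siMYCN library. The log2 fold changes were -0.02, SE 0.11, adjusted p = 0.887 in siMYCN, -0.86, SE 0.11, adjusted p = 5.06e-07 after siHAND2 and -0.87, SE 0.11, adjusted p = 1.09e-07 with both siRNAs. RPL39 had -0.34, -0.01 and 0.04 in the same comparisons. RPS27L, a paralog of RPS27, was 24.9, 27.8 and 30.8 CPM in siCtrl, 19.8, 19.3 and 18.4 CPM in siMYCN, 18.3, 21.2 and 22.9 CPM after siHAND2 and 21.4, 18.5 and 24.4 CPM with both siRNAs, with log2 fold changes of -0.51, -0.41 and -0.37, all called on deposited CPM. On the rescalings RPS27L was called in siMYCN and not in the other 2. RPL3L, a paralog of RPL3 known from heart and skeletal muscle, was at 0.146 to 0.421 CPM. RPL10L, a testis paralog of RPL10, stood at 0.0001 CPM, a constant added to every value of the deposited table, in all 12 samples, which is 0 reads and allows up to 0.0468 to 0.0949 CPM (3 reads). RPL22L1, a paralog of RPL22 whose symbol is outside the pattern, was 137, 103 and 129.7 CPM in siCtrl, 59.8, 50.9 and 56.5 CPM in siMYCN, 70.5, 72.9 and 72.0 CPM after siHAND2 and 39.1, 31.7 and 44.5 CPM with both siRNAs, log2 fold changes of -1.12, -0.76 and -1.66 (adjusted p = 2.57e-07, 3.38e-05 and 2.42e-11). RPL22 itself had -0.32, 0.04 and -0.41, called in siMYCN and in the combined knockdown on deposited CPM. On the rescalings RPL22 was called in siMYCN and not in the combined knockdown.

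Levels in siCtrl spanned 153.9 to 2961 CPM, with a median of 653 CPM, over the 76 members at 100 CPM or more. Per kilobase of the canonical GENCODE transcript these members had a median of 771.8 CPM. Among the highest were RPLP0 (2679.9 ± 199), RPS27 (2414 ± 223), RPS18 (2239 ± 236) and RPL27 (1962 ± 231), means ± SD of 3 siCtrl libraries in CPM per kilobase. RPS27 and RPS18 differed by less than the SD of either. Per kilobase the lowest member above 1 CPM was RPS27L at 4.55 ± 0.478, followed by RPL39L at 26.9 ± 1.76 and RPL28 at 39.1 ± 1.37. In CPM, not divided by length, RPL39L lay below RPS27L in every siCtrl library. The order per kilobase, with the place of RPS27L in it, rests on the annotated length. The canonical transcript exceeds 2 kb in 17 of the 76 members, RPL28 and RPL37 among them. The rank correlation across members was 0.79 with a level per kilobase of all exons and 0.64 with a level per kilobase of coding sequence.

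**Figure D5:**
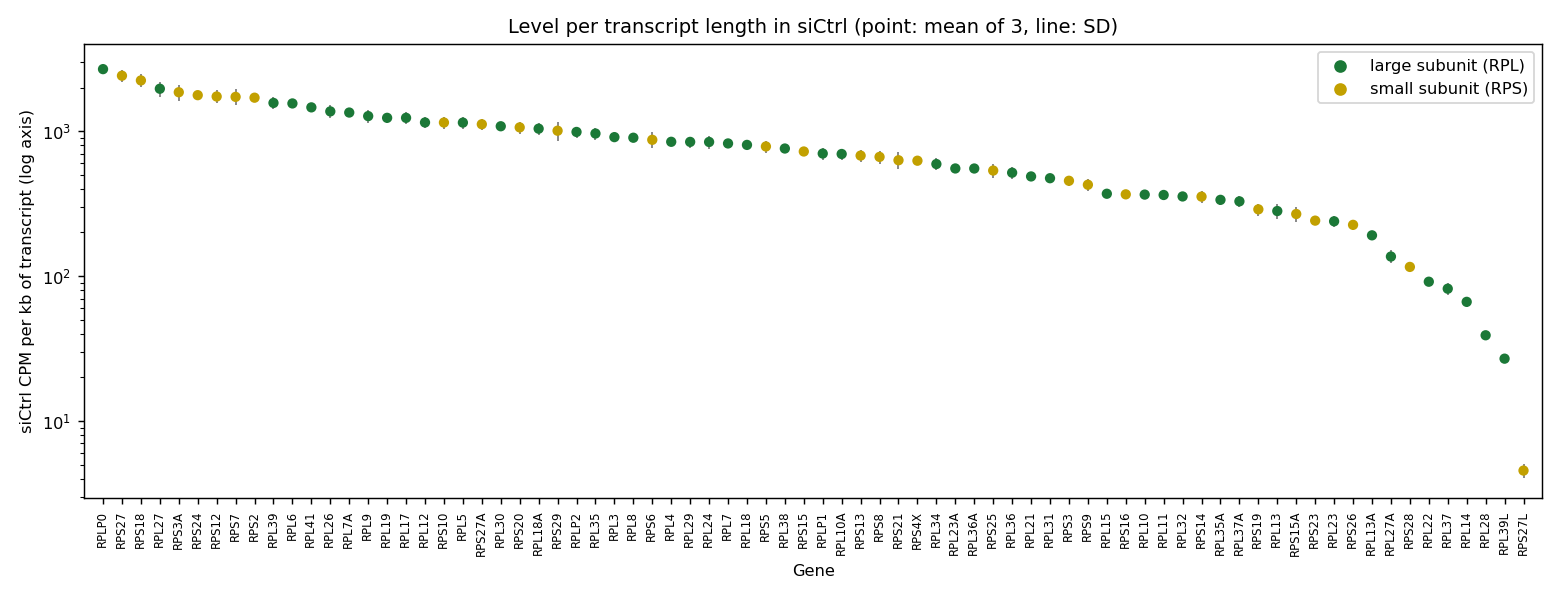
Mean CPM per kilobase of canonical transcript in siCtrl (log axis; vertical lines, SD of 3 libraries) for 76 members above 1 CPM, ordered from highest to lowest, with large-subunit genes in green and small-subunit genes in yellow. Of those shown RPLP0 and RPS27 are highest, and RPL39L and RPS27L lie below all others.

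The members varied in how far they moved, and some measured properties went with this. Across the 76 members at 100 CPM or more (genes of the same libraries, not independent replicates), the siMYCN change had a Pearson r of -0.40 with the siCtrl level and -0.01 with the GC content of the transcript, which ranged from 40.1% to 63.6%. The change from siMYCN to the combined knockdown had r of -0.49 with GC content, and -0.42 without replicate 3 of the combined knockdown. Within single libraries the r of the change with GC content was -0.29, -0.34 and -0.50 in the combined knockdown. It was -0.02, -0.30 and -0.36 in replicates 1 to 3 of siHAND2 and between -0.05 and 0.06 in siMYCN. The part of GC content in the differences between members, in the combined knockdown or after siHAND2, was not tested. The siMYCN change had a median of -0.50 over the 45 members with a pyrimidine run exactly at a listed start. It was -0.53 over the 16 other members at 100 CPM or more with a listed start. A run can begin a few bases after the listed start, as in RPL4, so the 16 do not stand for members without the TOP motif. The E-box CACGTG, the sequence MYC proteins are known to bind, was searched on both strands in the windows from 250 bases before to 50 after the start. It was present in 4 of 63 members (6.35%), RPL13A, RPL19, RPS19 and RPS28, against 8.77% of all genes. The 4 had siMYCN changes from -0.51 to -0.31 and the 57 other members at 100 CPM or more a median of -0.51. CCGGAA, the core of ETS sites, was found in 58.7% of members and 20.1% of all genes, and TATAAA in 9.52% and 14.0%. Many members share sequence or place with other genes: GENCODE names 1513 pseudogenes after 76 members, 36 members overlap another listed gene on the same strand (26 of them a snoRNA) and 12 one on the other strand, so reads can be split or shared, and whether counting used strand is not given in the sources used here.

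The genes that work with the ribosomal proteins were taken from fixed lists. On deposited CPM 16.3%, 30.4% and 50.1% of all tested genes were called lower in siMYCN, after siHAND2 and with both siRNAs, and 17.4%, 12.3% and 17.4% higher. On the median-ratio scale 22.5%, 24.9% and 33% were called lower. Of 8 ribosomal proteins with other names that were tested, among them RPSA and RACK1, 5 were called lower in siMYCN, 3 after siHAND2 and 6 with both siRNAs on deposited CPM, and 6, 2 and 5 on the median-ratio scale, where 2 and 1 were called higher after siHAND2 and with both siRNAs. RPL7L1 was at 187.8, 130.8, 163.3 and 121.2 CPM in siCtrl, siMYCN, siHAND2 and the combined knockdown. Of 21 assembly factors of the nucleolus and cytoplasm, 20, 17 and 21 were called lower, with median log2 fold changes of -0.67, -0.41 and -1.28, and none higher. The same counts were found on both rescalings. RRS1, needed for 60S assembly, went from 20.6 CPM in siCtrl to 9.28, 11.6 and 5.42 CPM in siMYCN, siHAND2 and the combined knockdown, and DKC1, the pseudouridine synthase, from 109.6 to 57.6, 74.6 and 32.7 CPM. Against siMYCN, all 21 assembly factors were called lower in the combined knockdown on deposited CPM (median -0.61) and 15 on the median-ratio scale (median -0.27), while the members had medians of 0.16 and 0.51; the difference between the groups of genes was not tested. Of 16 other TOP mRNAs, 8, 2 and 11 were called lower and 0, 1 and 0 higher on deposited CPM. On the median-ratio scale 12, 2 and 9 were called lower and 0, 6 and 2 higher, and on the listed-gene scale 9, 2 and 9 lower and 0, 5 and 2 higher. NPM1, a nucleolar chaperone, stood at 1753, 861 and 1293 CPM in siCtrl, siMYCN and siHAND2 and at 623.9 CPM in the combined knockdown, and VIM, an intermediate filament gene, at 237.3 and 87.6 CPM in siCtrl and the combined knockdown. Of 9 genes that control the translation of these mRNAs, 2 were called lower and 1 higher in siMYCN and 5 lower and 2 higher in the combined knockdown, where the 5 of 9 are near the share of all genes. On both rescalings 4 were called lower and 3 higher in the combined knockdown. On deposited CPM LARP1 was at 191.6 and 105.5 CPM and EIF4EBP1, an mTOR-controlled brake on initiation, at 67.3 and 36.9 CPM in siCtrl and the combined knockdown.

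The 78 mitochondrial ribosomal protein genes, whose products make up the separate ribosome of that organelle, are the closest group of the same function. On deposited CPM 43 were called lower in siMYCN with a median of -0.31, 58 after siHAND2 with -0.37 and 72 with both siRNAs with -0.66, beside 16.3%, 30.4% and 50.1% of all genes. On the median-ratio scale the counts were 54, 42 and 50, with medians of -0.30, -0.21 and -0.32, beside 22.5%, 24.9% and 33% of all genes. On the listed-gene scale they were 44, 49 and 50, beside 18.4%, 27.2% and 33.3% of all genes. The count was thus larger with both siRNAs than in siMYCN on deposited CPM and the listed-gene scale, and not on the median-ratio scale. After siHAND2 the cytosolic members had 4 genes called lower and a median of -0.03 on deposited CPM, and 1 lower, 17 higher and a median of 0.13 on the median-ratio scale. Against siMYCN, 51 mitochondrial genes were called lower in the combined knockdown on deposited CPM and none higher, where 50% of all genes were called lower, while 1 cytosolic member was lower and 21 were higher. On the median-ratio scale 19 mitochondrial genes were called lower and 10 higher (26.6% and 30% of all genes), and on the listed-gene scale 29 lower and 5 higher (31.3% and 25%), beside 75 and 70 cytosolic members higher. The difference between the 2 groups of genes was not tested.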

How the data were processed

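RNA of the 12 IMR32 samples was sequenced, and 1 table of CPM values per gene was deposited. Per the submitters' processing notes, the authors used STAR 2.5.1 and Partek with the hg19 (GRCh37) build; the counting tool, the annotation and the use of strand are not given in the sources used here. The deposited CPM are not counts, and the authors' table has 1e-04 added to every value. Depth was estimated by taking the most frequent low value above the added constant as the worth of 1 read. Between 87.5% and 89.3% of the values below 20 reads came out as whole reads within a tolerance of 0.02, so no count test was run.

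Genes whose CPM averaged 1 or more were tested with limma 3.58.1 (R 4.3.3, lmFit and eBayes with trend, 8 residual degrees of freedom) on log2(CPM + 1), with 4 group means over all 12 samples and 7 contrasts. P-values were adjusted over the 12680 genes by Benjamini and Hochberg, and a gene with an adjusted p under 0.05 was called. The members and lists were chosen with earlier results of these data known. The genes named were the 5 called members with the largest change per knockdown, the 3 most positive and 3 most negative interactions, the 5 highest and 5 lowest per kilobase, and members fixed by role. Others are marked in the text as named after their values were seen, except those listed to make up a count.

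Same-numbered samples of siCtrl and siMYCN and of siMYCN and siHAND2 deviated together in all 3 pairs (correlations of 0.15 to 0.44 and of 0.14 to 0.33). Each of the other group pairs had a correlation below 0 among its 3, as did siCtrl and siHAND2 (0.32, -0.07 and 0.42). The mean correlation was higher for same-numbered than for different-numbered samples in every group pair. The main fit does not use the replicate number, and the labels do not say what the numbers mark. Alternatives were another added value (0.1), no filter or a minimum of 5 CPM, the replicate block, 2 rescalings, a fit of the compared groups only, and leaving out each replicate. Python 3.11.15 with pandas 2.3.3 and numpy 2.4.6 was used for the rest. The fit was tested on simulated data. Start sites and promoter windows came from RefSeq tables of GRCh38.p14. Transcript lengths came from GENCODE. A few genes that the rule or lists cover are not reported here, and the figures that name each gene leave them out.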

Additional observations from a re-analysis of the deposited data

Results flagged for a closer look

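The interaction was called on a rescaled table for several members and on deposited CPM for none. It was called in 9 members on the median-ratio scale and in 8 on the listed-gene scale, all positive. Of all tested genes 1.67% and 1.29% were called positive on these scales. Among them are RPS27L with an interaction of 0.73, RPL17 with 0.66, RPS3 with 0.65, RPS14 with 0.58, RPL36 with 0.50, and RPL21 and RPL32 with 0.49 each, as log2 differences on the median-ratio scale. The limma adjusted p on the median-ratio scale was 0.0102 in RPS3 and 0.03975 to 0.0487 in the others named, close to the threshold. On deposited CPM the same 7 had 0.55, 0.47, 0.46, 0.39, 0.31, 0.30 and 0.30. Leaving out any one of siCtrl 1 or 3, siMYCN 1 to 3 or siHAND2 1 or 2 left 1 member called on either rescaling. The shares of all genes in these fits are not given here.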

How the results depend on the processing

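The fall of the members in siMYCN and their lower level in siMYCN than in siHAND2 held on all 3 scales; the fall in the combined knockdown against siCtrl did not. For combined against siMYCN most members were called higher on the rescalings only. The counts of members called differed by over 1.5 times from those on deposited CPM as follows, the median-ratio scale before the listed-gene scale: 18 and 17 against 4 in siHAND2, 23 and 25 against 54 in the combined knockdown, 26 on both against 47 when it was set against siHAND2, 76 and 71 against 22 when it was set against siMYCN, and 9 and 8 against 0 for the interaction. With only the compared groups in the fit the counts were 7 in siHAND2, 22 for combined against siHAND2 and 10 for combined against siMYCN, which was 13 with no filter. For these fits the shares of all genes are not given here.

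With a replicate block, a pairing the labels do not explain, the interaction was called in 5 members on deposited CPM, and the other counts (73 in siMYCN, 4 in siHAND2, 55 in the combined knockdown) stayed within 1.5 times. The block together with a rescaling gave 40 and 36 for the interaction, 25 and 25 in siHAND2, 26 and 31 in the combined knockdown, 76 and 72 when set against siMYCN, and 31 on the listed-gene scale for combined against siHAND2. The shares of all tested genes called with the block are not given here. The counts with the block are therefore not read as a result about the members. The listed-gene scale with the block, both rescalings with a replicate left out, the coding length and the summed level by listed reads or without replicate 3 of the combined knockdown were chosen after seeing the data.

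Leaving out 1 replicate gave counts, lowest to highest on deposited CPM and then on both rescalings together, of 0 to 8 and 1 to 31 for the interaction, 1 to 4 and 6 to 21 in siHAND2, 42 to 62 and 15 to 31 in the combined knockdown, 28 to 58 and 13 to 52 for combined against siHAND2, and 11 to 27 and 65 to 76 for combined against siMYCN. In siMYCN they were 59 to 71 and 60 to 73. The shares of all genes with a replicate left out are not given here. As a share of listed reads the summed level stood at 71.4% of siCtrl in siMYCN, 107% after siHAND2 and 97.3% with both siRNAs, or 90.4% without its replicate 3.

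Of the fold changes of named genes, 2066 kept their side of the threshold and, where called, their direction. These include any change of sign with no call in either setting. With the direction kept, 102 passed the threshold in the alternative only and 116 in the main setting only. The remaining 41 changed sign with a call in either setting. Against siCtrl the combined knockdown then had, on the median-ratio and listed-gene scales, 0.17 and 0.16 in RPL10, 0.20 and 0.19 in RPL28, 0.0223 and 0.0126 in RPLP2, and on the median-ratio scale 0.0036 in RPL26 and 0.0094 in RPS27A. Against siMYCN it had 0.34 and 0.28 in RPL10 and in RPL3, 0.26 and 0.20 in RPL22 and in RPL4, 0.34 and 0.27 in RPL28 and 0.31 and 0.25 in RPLP2. It had 0.18 in RPL41, 0.16 in RPL8 and in RPS2, 0.23 in RPLP1 and 0.17 in RPS15 on the median-ratio scale. The cause was not tested. Depth limits RPL3L and RPL10L only; the other members are far above 3 reads.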
